A study of Mus musculus with 8 samples.

Results

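Cyp2b9, Cyp2b13, Cyp2a4 and Cyp2a5 are 4 cytochrome P450 genes of 1 gene cluster, described here in host liver of tumour-bearing mice. They are 4 of the 55401 genes in the deposited count table and were found by symbol. They were chosen from measured values, namely the difference between 2 tumour lines, which for these genes depended on which mice were compared. That difference and its dependence are therefore given as description, without a test. The mice were NOD Scid Gamma (NSG), an immunodeficient strain, and all carried a subcutaneous xenograft of a human colorectal cancer cell line, with no tumour-free mouse and no ages given. Colo201 is the line the series gives as FGF19-Hi and HCT116 the line it gives as FGF19-Lo. Each line contributed 4 liver libraries under 2 title numbers, each number with a library L and a library R. Colo201 2 and HCT116 1 are labelled male, and Colo201 4 and HCT116 3 are labelled female.

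Several properties of the libraries bear on every value below. Whether L and R of a number came from separate animals is not stated, so p-values measure the spread between libraries, which may be technical. A title number holds 1 line and 1 sex label, so that differences between numbers, lines and labels cannot be told apart at that level. Expression of Xist, which is transcribed from the silenced X of females, and of 4 Y-linked genes went against the sex label in all 8 libraries. Sex is therefore written only as labelled, and the libraries labelled male are those with Xist. All 10 hepatocyte markers examined were detected in every library, with a summed level of 131300 to 202600 CPM, counts scaled to library size. The libraries held 61347603 to 65457482 estimated counts.

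Cytochromes P450 of family 2 oxidise steroids, drugs and other foreign compounds in the endoplasmic reticulum of hepatocytes. Cyp2b9, Cyp2b13 and Cyp2a4 are known in mouse as liver P450s more abundant in females, and Cyp2a4 hydroxylates steroids at position 15-alpha. Cyp2a5, the coumarin 7-hydroxylase and the mouse counterpart of human CYP2A6, is known to be inducible by liver injury and foreign compounds. Sex bias of such genes is set largely by the pattern of growth hormone secretion, acting through STAT5B and through the repressors BCL6 and CUX2.

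The 4 genes lie on the + strand of chromosome 7 (GRCm38), each with 9 exons in the transcript used here. Cyp2b13 (ENSMUSG00000040583) spans chr7:26061497-26096197, and Cyp2b9 (ENSMUSG00000040660) follows 77.2 kb further on at chr7:26173411-26210661 with no protein-coding gene between them. Cyp2a4 (ENSMUSG00000074254) lies at chr7:26307169-26315088, 96.5 kb beyond Cyp2b9. Cyp2a5 (ENSMUSG00000005547) lies at chr7:26835305-26843548, 520.2 kb beyond Cyp2a4, with 7 protein-coding genes between. The genes form 2 pairs of close paralogs. The coding sequences of Cyp2a4 and Cyp2a5 were 98.4% identical, with 23 mismatches in 1482 bases, and those of Cyp2b9 and Cyp2b13 were 92.7% identical, with 107 mismatches in 1473 bases. Across the pairs identity was 60.2 to 60.9%.

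The start regions are shown because genes with near-identical sequence there had different levels in the same libraries. Each runs 5′ to 3′ on the + strand from 250 bases before to 50 bases after the RefSeq start (GRCm38.p6), and all 4 genes matched an entry. The windows are chr7:26061245-26061544 for Cyp2b13, chr7:26173159-26173458 for Cyp2b9, chr7:26306942-26307241 for Cyp2a4 and chr7:26835089-26835388 for Cyp2a5. Capitals mark bases that differ from the paralog of the pair or have no counterpart in it.
Cyp2b13: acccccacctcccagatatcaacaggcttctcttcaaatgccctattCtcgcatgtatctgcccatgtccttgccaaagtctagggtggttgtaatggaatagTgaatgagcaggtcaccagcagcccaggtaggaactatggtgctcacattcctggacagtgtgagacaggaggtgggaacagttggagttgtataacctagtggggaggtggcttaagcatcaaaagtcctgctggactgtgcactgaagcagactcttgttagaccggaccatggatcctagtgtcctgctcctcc
Cyp2b9: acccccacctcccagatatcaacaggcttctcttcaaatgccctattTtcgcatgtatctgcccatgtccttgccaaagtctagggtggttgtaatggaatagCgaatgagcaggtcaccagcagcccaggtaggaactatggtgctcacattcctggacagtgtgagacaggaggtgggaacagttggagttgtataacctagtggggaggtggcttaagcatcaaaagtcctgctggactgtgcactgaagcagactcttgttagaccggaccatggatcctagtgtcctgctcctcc
Cyp2a4: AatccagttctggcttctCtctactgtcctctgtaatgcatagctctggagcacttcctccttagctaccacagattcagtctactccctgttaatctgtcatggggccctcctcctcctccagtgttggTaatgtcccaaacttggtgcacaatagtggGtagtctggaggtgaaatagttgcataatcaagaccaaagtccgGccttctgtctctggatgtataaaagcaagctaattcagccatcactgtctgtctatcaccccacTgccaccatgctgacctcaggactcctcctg
Cyp2a5: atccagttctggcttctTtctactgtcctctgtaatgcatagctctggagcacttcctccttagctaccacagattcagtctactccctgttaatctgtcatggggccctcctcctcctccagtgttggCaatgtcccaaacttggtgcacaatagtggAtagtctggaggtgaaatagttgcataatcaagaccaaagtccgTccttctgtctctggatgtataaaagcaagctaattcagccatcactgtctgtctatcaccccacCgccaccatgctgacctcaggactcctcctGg
Cyp2b13 and Cyp2b9 shared 298 of 300 bases. Cyp2a4 and Cyp2a5 shared 294, with 5 mismatches and 2 unpaired bases. Across the pairs identity was 46.3 to 46.9%.

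Motifs were searched as exact letters on both strands, and positions count back from -1 at the last base before the start. CAAAGTC, letters of the HNF4 motif that were added to the search after the sequences had been read, was present in all 4 windows and in 4.5% of 32544 promoters of the same length. It lay at -176 to -170 in both Cyp2b genes, at -55 to -49 in Cyp2a4 and at -56 to -50 in Cyp2a5. The nuclear receptor motif AGGTCA lay at -138 to -133 in both Cyp2b genes and, on the reverse strand, after the start in both Cyp2a genes (16.2% of promoters). TTATGNAA, the motif of PAR bZIP factors, was found on the reverse strand in Cyp2a4 and Cyp2a5 (3.4% of promoters), as was TATAAA on the + strand (13.6%). Neither was found in the Cyp2b windows. The STAT5 motif TTCNNNGAA (8.3% of promoters) and the FOXA motif TGTTTAC (3.7%) were in none of the 4 windows. None of the motifs found overlapped another in the same gene. No motif found separated the members of a pair.

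Levels per length are given as the authors' FPKM, fragments scaled to transcript length and library size. Cyp2b9 stood at 353 and 420.1 FPKM in Colo201 2L and 2R and at 285 and 249.6 in HCT116 1L and 1R. In the libraries labelled female it stood at 149 and 90.3 in Colo201 4L and 4R and at 16.8 and 4.73 in HCT116 3L and 3R. No 2 title numbers overlapped, and the order was Colo201 2, HCT116 1, Colo201 4, HCT116 3. The libraries of HCT116 3 differed 3.33-fold from each other in CPM, against 1.10-fold to 1.67-fold in the other numbers.

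Cyp2b13 followed the same order with a wider range. It stood at 196 and 209 FPKM in Colo201 2L and 2R, at 119 and 129 in HCT116 1L and 1R, and at 17.1 and 15.1 in Colo201 4L and 4R. In HCT116 3L and 3R it stood at 0.42 and 0.18 FPKM, which rested on 55 and 23 estimated counts. Every other library held at least 1927 estimated counts of Cyp2b13, so the relative counting error was largest in HCT116 3.

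Cyp2a4 was the most abundant of the 4 per length in Colo201 2, at 1031 and 1330.5 FPKM in 2L and 2R. HCT116 1L and 1R held 939.95 and 647 FPKM of it, and Colo201 4L and 4R held 355 and 305. HCT116 3L and 3R held 8.93 and 14.2 FPKM. The order of the title numbers was again that of Cyp2b9, without overlap.

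Cyp2a5 had another order. Its level was 1311 and 739 FPKM in HCT116 1L and 1R, and it stood at 309 and 1005 in Colo201 2L and 2R, 2 numbers whose libraries overlapped. Colo201 4L and 4R held 292 and 228 FPKM and HCT116 3L and 3R held 210.1 and 241, and these also overlapped. Colo201 2L lay 3.0-fold below Colo201 2R in CPM and close to the libraries labelled female. In HCT116 3 Cyp2a5 was the most abundant of the 4 genes per length, at 226 ± 21.9 FPKM (SD, n = 2), with Cyp2a4 at 11.6 ± 3.76, Cyp2b9 at 10.8 ± 8.54 and Cyp2b13 at 0.300 ± 0.170. The levels of Cyp2a4 and Cyp2b9 there did not differ beyond their spread.

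**Figure D1:**
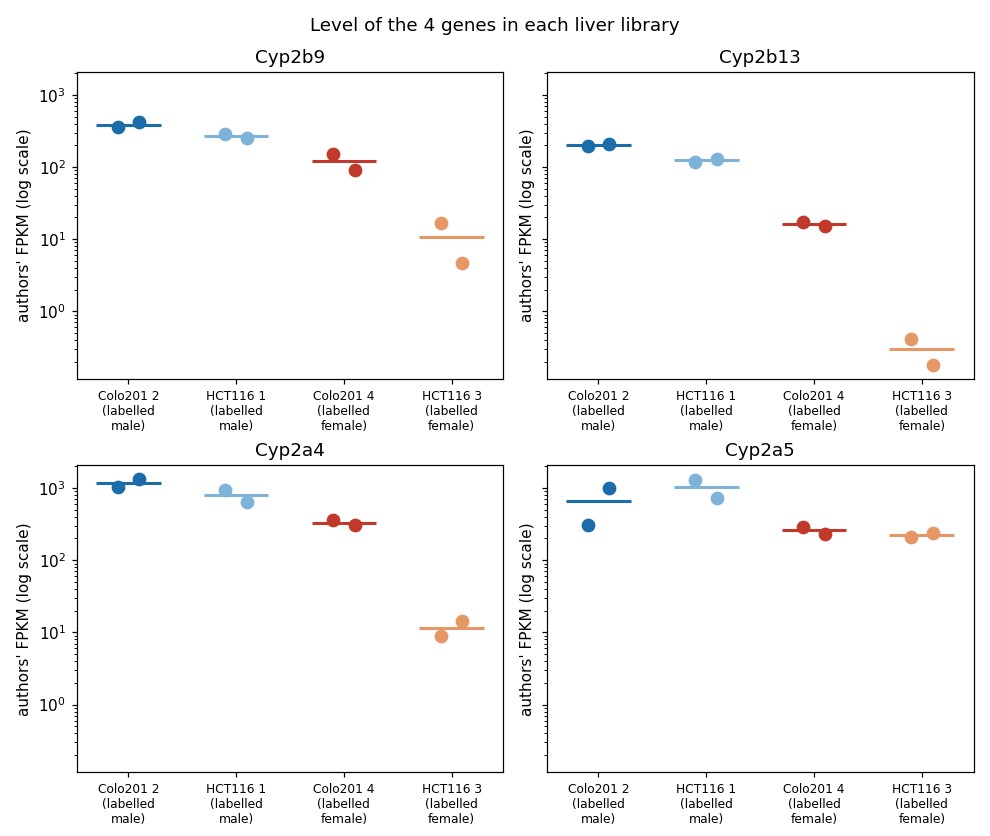
Level of each gene in FPKM on a log axis, with 1 point per library (left, L and right, R) and a line at the mean of each title number. HCT116 3 lies far below the other numbers for Cyp2b9, Cyp2b13 and Cyp2a4, whereas Cyp2a5 lies at 210.1 and 241 FPKM there, overlapping Colo201 4.

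Together the 4 genes took 0.378 and 0.613% of all estimated counts in Colo201 2L and 2R, with 0.555 and 0.366% in HCT116 1L and 1R. They took 0.169 and 0.132% in Colo201 4L and 4R, with 0.0529 and 0.0587% in HCT116 3L and 3R.

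Within each pair the paralogs were set against each other in the same library, a ratio that does not depend on library depth. Cyp2a4 made up 76.9 and 57.0% of the summed FPKM of Cyp2a4 and Cyp2a5 in Colo201 2L and 2R, 54.9 and 57.2% in Colo201 4L and 4R, against 41.8 and 46.7% in HCT116 1L and 1R. In HCT116 3L and 3R it made up 4.08 and 5.58%. The sum of the pair was 1341 and 2335 FPKM in Colo201 2L and 2R, 2251 and 1386 in HCT116 1L and 1R, 647 and 533 in Colo201 4L and 4R, against 219 and 255 in HCT116 3L and 3R. Thus Colo201 4 had nearly the same paralog mix as Colo201 2R at a lower sum, and HCT116 3 alone consisted almost wholly of Cyp2a5.

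Cyp2b13 was the smaller member of its pair in all 8 libraries. It made up 35.7 and 33.3% of the summed FPKM of Cyp2b9 and Cyp2b13 in Colo201 2L and 2R, with 29.4 and 34.1% in HCT116 1L and 1R. In Colo201 4L and 4R it made up 10.3 and 14.3%, and in HCT116 3L and 3R 2.44 and 3.67%. The sum of the pair was 548 and 629 FPKM in Colo201 2L and 2R, 404 and 379 in HCT116 1L and 1R, 166 and 105 in Colo201 4L and 4R, against 17.2 and 4.91 in HCT116 3L and 3R. The share of Cyp2b13 was low in Colo201 4 and lowest in HCT116 3, the 2 numbers with the lowest sums.

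**Figure D2:**
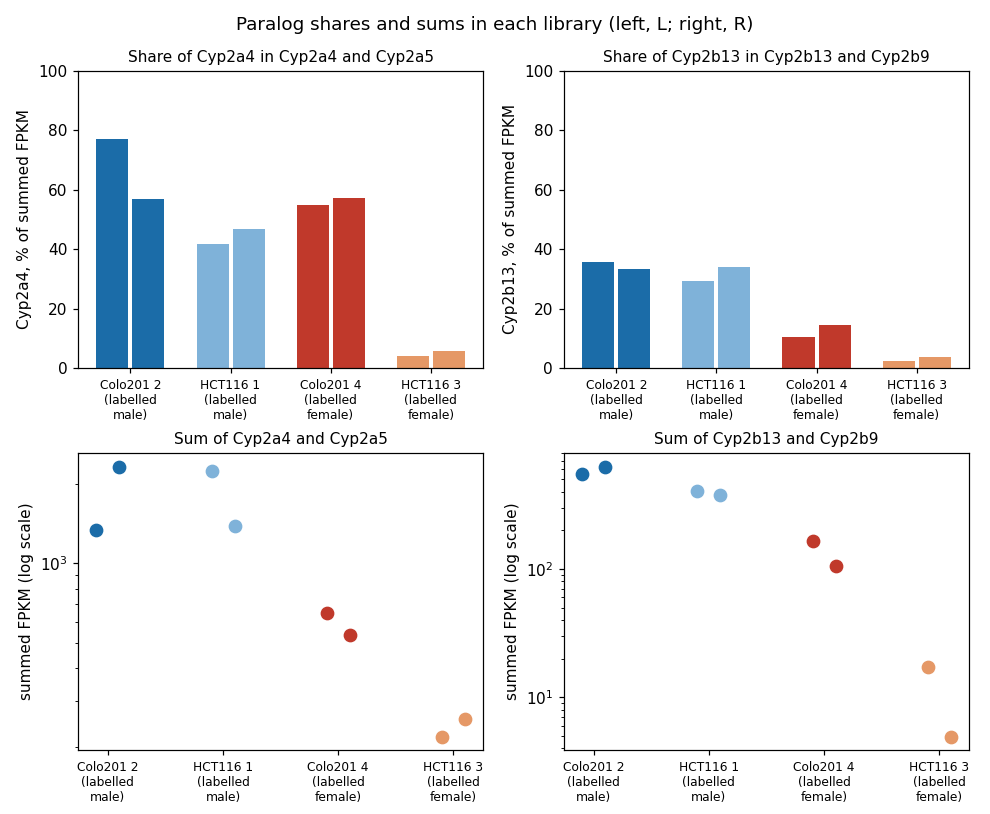
Share of Cyp2a4 and of Cyp2b13 in the summed FPKM of their pair (upper panels, percent, 1 bar per library) and the sums themselves (lower panels, FPKM, log axis). The share of Cyp2a4 was 4.08 and 5.58% in HCT116 3 and at least 41.8% elsewhere, while the share of Cyp2b13 was low in both numbers labelled female.

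Paralogs this similar can exchange reads in counting. Of all 50-base windows of the transcripts, 36.1% of those of Cyp2a4 and 31.0% of those of Cyp2a5 occur unchanged in the paralog, against 10.8% each for Cyp2b9 and Cyp2b13. For 100-base windows the shares were 11.2, 9.6, 1.2 and 1.2% in the same order. Counting any other gene, paralog included, the 50-base shares were 38.0% for Cyp2a4, 40.8% for Cyp2a5, 11.2% for Cyp2b9 and 27.3% for Cyp2b13. The 100-base shares were then 11.2, 14.4, 1.2 and 9.3%. Exchange of reads with genes outside the pairs was not tested. The split of reads within the Cyp2a pair is therefore less certain than that within the Cyp2b pair. In HCT116 3L and 3R Cyp2a4 received 3.44 and 4.72% of the estimated counts of its pair, so no more than this share of the pair could have been moved from Cyp2a5 to Cyp2a4 there. Reads moved the other way, from Cyp2a4 to Cyp2a5, are not bounded by this share and were not measured.

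Libraries labelled male were compared with those labelled female, averaged over the lines. The choice of the genes did not rest on this average, but its parts within each line belong to the dependence that the choice used. The genes were also chosen with earlier results of these data known. The p-values of the 4 genes are therefore not independent of the choice. All 4 genes were higher in the libraries labelled male by edgeR's quasi-likelihood test with Benjamini-Hochberg adjustment, at an adjusted p under 0.05. Of 17669 genes tested, 1.81% were called higher and 1.96% lower. Cyp2b13 differed by 6.16 (SE 0.22, adjusted p = 1.43e-05) on the log2 scale in edgeR, Cyp2a4 by 3.95 (SE 0.22, adjusted p = 0.000132) and Cyp2b9 by 3.16 (SE 0.37, adjusted p = 0.00426). Cyp2a5 differed least, by 1.73 (SE 0.35, adjusted p = 0.0386). For each of the 4 genes all 4 libraries labelled male lay above all 4 labelled female, as did those of 5.06% of genes tested, but for Cyp2a5 the gap was small, with 741 CPM in Colo201 2L against 677 CPM in Colo201 4L.

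The call of Cyp2a5 was lost in edgeR without any 1 of Colo201 4L, Colo201 4R, HCT116 1L, HCT116 1R, HCT116 3L or HCT116 3R, with adjusted p of 0.0566 to 0.128, and in limma on log2(FPKM + 1), with adjusted p = 0.0809. With L and R of each number summed, which leaves 1 residual degree of freedom, edgeR called none of the 4 genes, with adjusted p of 0.0944 to 0.289 and differences of 1.75 to 5.92, while it called 110 genes in all. The additive fit of line and label in edgeR did not call Cyp2a4 (adjusted p = 0.0539). The summed fit is additive too, and its only residual is the dependence of the line difference on the label. This dependence was used to choose the genes and enters the residual of the additive fit as well. A missing call of a chosen gene in either fit therefore cannot decide on its label difference.

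Markers of 2 other cell types of the liver also stood higher where male was the label, and in bulk liver fewer cells of a type and less RNA per cell cannot be told apart. The summed level of 10 markers of Kupffer cells, the resident macrophages, ranged from 485 to 599 CPM where male was the label and from 213 to 419 CPM where female was. That of 9 markers of endothelial cells was 342 to 384 against 215 to 287 CPM. No marker of either list was at 0 in any library. All 10 Kupffer markers lay above 0 by label, with a median log2 difference of 0.68, and 9 had an unadjusted p under 0.05 in edgeR, as did 9.44% of all genes on the higher and 8.85% on the lower side. After adjustment edgeR called 0 of the 10 and DESeq2 9, where DESeq2 called 4.3% of all genes higher and 4.13% lower. All 9 endothelial markers lay above 0, with a median of 0.59, and 3 passed in edgeR and 8 in DESeq2. Over all genes edgeR called 1.81% higher and 1.96% lower by label. With a library left out edgeR called 9 of the Kupffer markers without Colo201 4L, 3 without Colo201 4R and 0 without any other, and 0 to 6 of the endothelial markers, again the most without Colo201 4L and 0 without Colo201 2R, HCT116 1L, HCT116 1R or HCT116 3R. With title numbers summed it called 0 of each list. These alternatives for the marker lists were chosen after the data had been seen. The summed level of the 10 hepatocyte markers also stood higher where male was the label, at 161600 to 202600 CPM against 131300 to 158800 CPM. It was lowest in HCT116 3L and 3R, at 132300 and 131300 CPM, against 158800 and 157100 CPM in Colo201 4L and 4R. Of these 10 markers 7 lay above 0 by label and 3 below, with a median log2 difference of 0.16. The part of the markers of these cell types in the label differences of the 4 P450 genes was not tested.

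When the counts of each pair were summed, so that an exchange of reads within the pair could not act, the difference by label was 3.63 for the Cyp2b pair (edgeR adjusted p = 0.00202) and 2.21 for the Cyp2a pair (edgeR adjusted p = 0.00198). Split by line, the fitted label difference was smaller in Colo201 than in HCT116 hosts for each gene. It was 3.65 against 8.66 for Cyp2b13, 1.83 against 6.06 for Cyp2a4, 1.69 against 4.63 for Cyp2b9 and 1.31 against 2.16 for Cyp2a5, as log2 differences. These splits belong to the dependence by which the genes were chosen and are not tested.

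The difference between lines is given next as description. In the libraries labelled female, Colo201 4 lay above HCT116 3 by a fitted log2 difference of 5.77 (SE 0.31) for Cyp2b13, 4.85 (SE 0.32) for Cyp2a4 and 3.53 (SE 0.53) for Cyp2b9, or 54.4-fold, 28.8-fold and 11.5-fold. For Cyp2a5 the difference was 0.23 (SE 0.47), and its libraries overlapped. Both Colo201 4 libraries lay above both of HCT116 3 for 3 of the 4 genes, as they did for 22.9% of all genes tested. Among 12735 genes with at least 1 CPM on average, Cyp2b13 ranked 5 by this difference, Cyp2a4 ranked 9, Cyp2b9 ranked 24 and Cyp2a5 ranked 3329. Without HCT116 3L the difference of Cyp2b9 was 4.64 and that of Cyp2b13 6.44, and without HCT116 3R they were 2.91 and 5.32.

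In the libraries labelled male the same genes differed far less between lines. Colo201 2 lay above HCT116 1 by 0.76 (SE 0.24) for Cyp2b13, 0.62 (SE 0.27) for Cyp2a4 and 0.58 (SE 0.48) for Cyp2b9 on the log2 scale. Cyp2a5 lay the other way, at -0.62 (SE 0.48), and this value moved with single libraries. Leaving out Colo201 2L gave -0.03 and leaving out HCT116 1L gave -0.14, while leaving out Colo201 2R gave -1.62 and HCT116 1R -0.98. For the 3 other genes both Colo201 2 libraries lay above both of HCT116 1, as did 23.8% of all genes tested. The difference of the line differences was 5.01 (SE 0.38) for Cyp2b13, 4.23 (SE 0.40) for Cyp2a4, 2.95 (SE 0.69) for Cyp2b9 and 0.85 (SE 0.67) for Cyp2a5.

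The counts within a pair were also summed for the comparison of lines. The sum of Cyp2a4 and Cyp2a5 was higher by 1.21 in Colo201 4 than in HCT116 3 and by 0.00 in Colo201 2 than in HCT116 1. For the Cyp2b pair these log2 differences were 3.67 and 0.64. The value of the sum in libraries labelled female thus lay below that of Cyp2b13 alone (5.77) and of Cyp2a4 alone (4.85).

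The other P450 genes of the cluster were examined as neighbours, from a list of 9 of which 7 were tested. By label, 3 of the 7 passed as higher and 1 passed as lower where male was the label (1.81 and 1.96% of all genes). Cyp2a22 was higher by 6.12 (SE 0.50, edgeR adjusted p = 0.000794), Cyp2g1, a P450 best known from olfactory mucosa, by 3.37 (SE 0.28, edgeR adjusted p = 0.000868) and Cyp2b10, the classical target of the nuclear receptor CAR, by 1.85 (SE 0.30, edgeR adjusted p = 0.0175). Cyp2f2, which oxidises naphthalene, fell by 0.63 (SE 0.11, edgeR adjusted p = 0.0273). Cyp2a12 stood at -0.34 (edgeR adjusted p = 0.162). The call of Cyp2b10 was lost without Colo201 2R, HCT116 1L or HCT116 3R (adjusted p of 0.0581 to 0.0764). That of Cyp2f2 was lost without Colo201 4R, HCT116 1L, HCT116 1R, HCT116 3L or HCT116 3R (adjusted p of 0.0705 to 0.115). With L and R of each title number summed, edgeR called Cyp2b10 (adjusted p = 0.018) and no longer called Cyp2a22 (0.0721), Cyp2g1 (0.0944) or Cyp2f2 (0.172). Cyp2s1 and Cyp2t4 were tested at low counts and not called, and Cyp2b19 and Cyp2b23, at or near 0 FPKM, were not tested.

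Between lines, 0 of the 7 neighbours passed in the libraries labelled female in edgeR (over all genes 0.26% were called higher and 0.232% lower), 0 in those labelled male (0.102 and 0.13%) and 0 for the interaction (0.017 and 0.0113%). At an unadjusted p under 0.05, 2 stood higher and 2 lower in the libraries labelled female, 0 and 2 in those labelled male, and 2 and 0 for the interaction. Over all genes the shares on the 2 sides at that p came to 7.49 and 6.62% in the libraries labelled female, 6.58 and 6.5% in those labelled male, and 2.19 and 1.91% for the interaction. Cyp2b13 and Cyp2a4, chosen on the interaction, are among the 5 genes called for it in edgeR and are counted in its shares. DESeq2 called 1 of the 7 lower in the libraries labelled female and 0 in the other comparisons of lines. Its shares over all genes with an adjusted p came to 2.03 and 2.2% in the libraries labelled female, 2.1 and 2.04% in those labelled male, and 0.157 and 0.175% for the interaction. Cyp2a22 stood at 1.58 (SE 0.64, edgeR adjusted p = 0.332) and Cyp2b10 at 1.14 (SE 0.42, edgeR adjusted p = 0.282) in the libraries labelled female, at unadjusted p of 0.0413 and 0.0266. Cyp2a22 held 32.6 and 132 CPM in Colo201 2L and 2R, 152 and 91.6 in HCT116 1L and 1R, 2.85 and 2.12 in Colo201 4L and 4R, against 0.912 and 0.751 in HCT116 3L and 3R. Like Cyp2a5, the P450 gene next to it, Cyp2a22 was lower in Colo201 2L than in the other 3 libraries labelled male, as was Cyp2g1, at 5.45 CPM against 10.4 to 15.8.

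**Figure D3:**
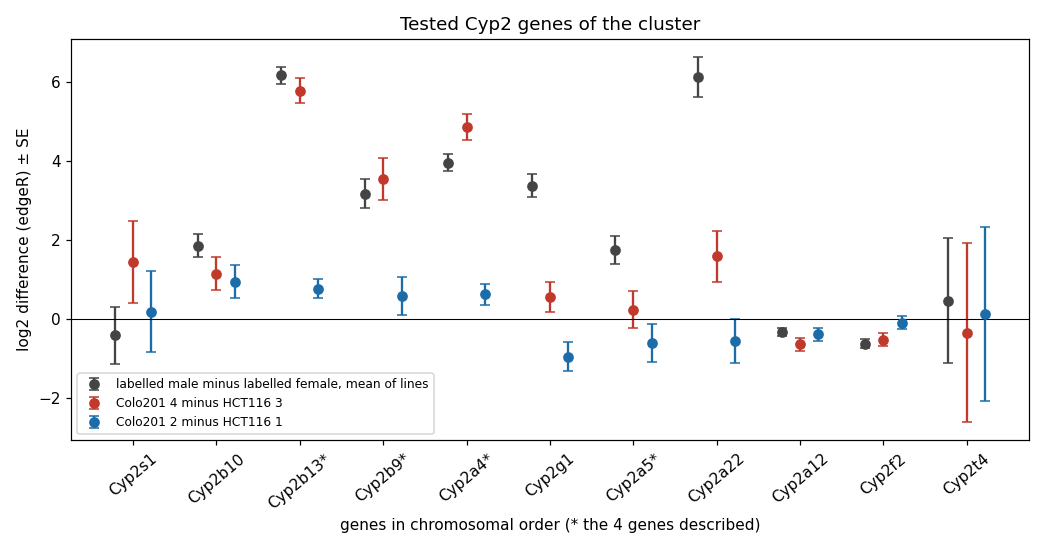
Fitted log2 differences with SE for the tested P450 genes in chromosomal order, by label (grey), between lines in libraries labelled female (red) and between lines in libraries labelled male (blue). Cyp2b13, Cyp2a4 and Cyp2b9 have line differences of 5.77, 4.85 and 3.53 in libraries labelled female, and Cyp2a22 and Cyp2g1 have label differences of 6.12 and 3.37 with smaller line differences.

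Other sex-biased liver genes were set beside the 4. In a list of 29 genes known as female-biased in mouse liver, 27 were tested and 24 were higher in the libraries labelled male, with 0 lower and a median log2 difference of 4.72 against 0 for all genes. Of 24 tested male-biased genes, 22 were lower and 0 higher, with a median of -3.6. Over all genes edgeR called 1.81% higher and 1.96% lower by label. With title numbers summed, 20 of the female-biased genes were called higher and 12 of the male-biased genes lower, where edgeR called 110 genes in all. By label the female-biased genes thus went the way of the 4 P450s and the male-biased genes went the other way.

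Between lines few of these genes passed. In the libraries labelled female, 1 of the 27 female-biased genes was higher in Colo201 4 and 1 was lower, with a median of -0.48 against 0.01 for all genes. The riser was Prom1, the membrane glycoprotein CD133, at 4.79 (SE 0.36, edgeR adjusted p = 0.00332), and Slc22a26, an organic anion transporter family member, fell by 1.72 (SE 0.23, edgeR adjusted p = 0.034). The call of Slc22a26 was lost without any 1 library of Colo201 4, HCT116 1 or HCT116 3 (adjusted p of 0.0774 to 0.121), while that of Prom1 held without each library in turn (adjusted p of 0.00352 to 0.0375). Hao2, a hydroxyacid oxidase, stood at 3.50 (SE 0.76, edgeR adjusted p = 0.114). Sult2a1, a sulfotransferase, was at 0 in HCT116 3L and 3R and at 0.0939 and 0.0324 CPM in Colo201 4L and 4R, levels too low for a fold between these numbers. Of the 24 male-biased genes 0 passed in either direction in edgeR, with a median of -0.14, while 2 stood higher and 5 lower at an unadjusted p under 0.05 (7.49 and 6.62% of all genes). DESeq2 called 2 of them higher and 4 lower (2.03 and 2.2% of all genes), and limma on log2(FPKM + 1) called 0 higher and 3 lower (0.272 and 0.226%). In the libraries labelled male 0 genes of either list passed in edgeR (0.102 and 0.13% of all genes). There the male-biased genes had a median of 0.57, with 21 above 0 and 2 below. Of them 9 stood higher and 1 lower at an unadjusted p under 0.05 (6.58 and 6.5%). DESeq2 called 4 and 1 of them (2.1 and 2.04%). The female-biased genes had a median of -0.37, with 3 higher and 4 lower at that p, and DESeq2 called 2 and 1. For the interaction 0 genes of either list passed in edgeR, with 2 female-biased genes higher and 5 lower and 1 male-biased gene higher and 7 lower at an unadjusted p under 0.05, against 2.19 and 1.91% of all genes. DESeq2 called 1 female-biased gene higher and 1 male-biased gene lower for the interaction (0.157 and 0.175% of all genes). Prom1 had the value 3.35 there (SE 0.44, unadjusted p = 8.1e-05, edgeR adjusted p = 0.163). In limma on log2(FPKM + 1) the line difference of Prom1 in libraries labelled female was 0.69 (adjusted p = 0.101), a scale on which low genes move little.

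**Figure D4:**
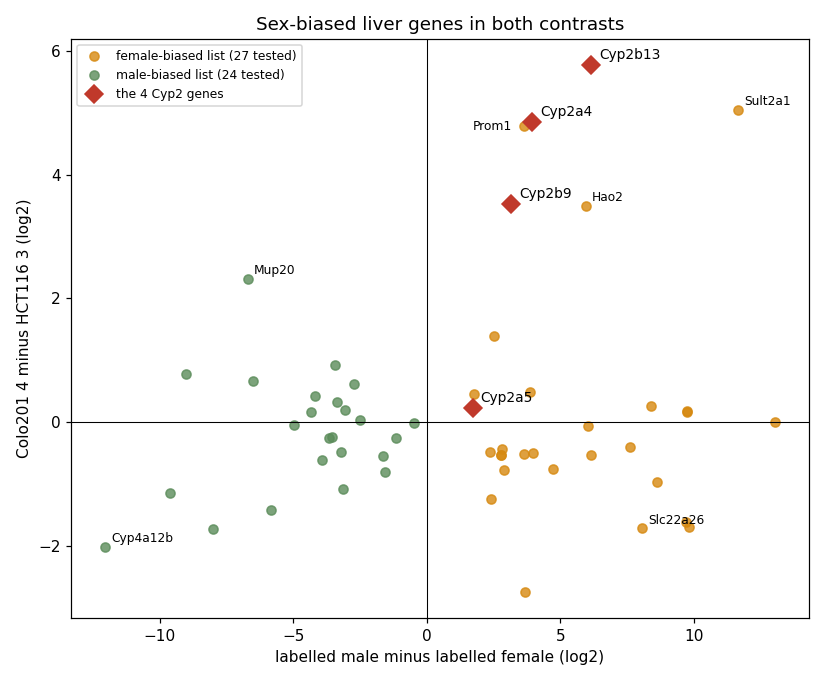
Fitted log2 difference by label (horizontal axis) against that between Colo201 4 and HCT116 3 (vertical axis) for 27 female-biased genes, 24 male-biased genes and the 4 P450s. Cyp2b13, Cyp2a4, Cyp2b9 and Prom1 stand at 3.53 or more on the vertical axis and Hao2 at 3.50, where the female-biased list has a median of -0.48. The point of Sult2a1 rests on libraries at 0, and the 2 axes share the libraries labelled female.

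The regulators of sex bias were read next. By label, 5 of 26 genes of the growth hormone axis and of sex-dependent transcription were higher and 2 were lower where male was the label. Over all genes edgeR called 1.81% higher and 1.96% lower by label. Bcl6, the repressor of female-biased genes, was lower by a log2 difference of -2.73 (SE 0.43, edgeR adjusted p = 0.0158), with 3.22 to 10.5 CPM in libraries labelled male and 24.2 to 51.9 in those labelled female. This call was lost without HCT116 1L (adjusted p = 0.0874) or HCT116 1R (adjusted p = 0.0662). Trim24 (2.41, SE 0.20, edgeR adjusted p = 0.000858), Tox (2.76, SE 0.21, edgeR adjusted p = 0.000605) and the prolactin receptor Prlr (1.42, SE 0.09, edgeR adjusted p = 0.000205) were higher. With title numbers summed the call of Prlr was lost (edgeR adjusted p = 0.0519), while Trim24 (0.00946), Tox (0.0177) and Bcl6 (0.0195) were called. Cux2, a repressor of male-biased genes, stood at 3.88 (SE 1.06, edgeR adjusted p = 0.101) and ranged from 33.7 to 105 CPM in libraries labelled male and from 0.259 to 12.6 in those labelled female.

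Between Colo201 4 and HCT116 3, where Cyp2b9, Cyp2b13 and Cyp2a4 stood far apart, 0 of these 26 regulators passed in edgeR, 1 stood higher and 3 lower at an unadjusted p under 0.05 (7.49 and 6.62% of all genes), and DESeq2 called 0 higher and 2 lower (2.03 and 2.2%). Stat5b stood at 0.18 (SE 0.14, edgeR adjusted p = 0.613), Hnf4a at -0.16 (SE 0.11, edgeR adjusted p = 0.561), Bcl6 at -0.07 (SE 0.57, edgeR adjusted p = 0.974) and Cux2 at 0.48 (SE 1.38, edgeR adjusted p = 0.913). The wide errors of Bcl6 and Cux2 leave differences of the size of their SE undetectable at this number of libraries. RNA levels say nothing of STAT5B activity.

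CAR and PXR, the nuclear receptors that induce Cyp2b10 and other P450s, were examined with their targets. By label 9 of 24 genes passed as higher with the male label and 2 as lower in edgeR, against 11 and 7 in DESeq2. Over all genes the shares by label came to 1.81 and 1.96% in edgeR and 4.3 and 4.13% in DESeq2. The counts of listed genes depended on single libraries. The 9 became 3 when HCT116 1L or HCT116 3R was left out, 5 when HCT116 1R was and 6 when Colo201 2R or HCT116 3L was, and the 2 became 6 when Colo201 4R was. With title numbers summed, 3 were called higher and 2 lower, where edgeR called 110 genes in all. Between Colo201 4 and HCT116 3, 0 passed as higher in edgeR and 4 as lower. At an unadjusted p under 0.05, 2 stood higher and 14 lower (7.49 and 6.62% of all genes), and DESeq2 called 0 higher and 9 lower (2.03 and 2.2%). The 4 were Gsta2 (-3.11, edgeR adjusted p = 0.00332), Cyp2c50 (-1.3, edgeR adjusted p = 0.0239), Cyp2c54 (-2.08, edgeR adjusted p = 0.0345) and Cyp3a13 (-1.15, edgeR adjusted p = 0.0496). Nr1i3, which encodes CAR, stood at -1.47 (edgeR adjusted p = 0.0528) and Nr1i2, which encodes PXR, at -0.51 (edgeR adjusted p = 0.122). Of the 4 calls only that of Gsta2 held without each library in turn. The 4 called genes went opposite to Cyp2b9, Cyp2b13 and Cyp2a4 in the same libraries. Of the 24 genes listed, 5 lay above 0 in this comparison and 19 below. Cyp2b10, described above among the neighbours, lay the same way as those P450s but was not called in edgeR. The list also lay low between Colo201 2 and HCT116 1, with 3 genes above 0 and 21 below. Its median was -0.45 there and -0.49 in the libraries labelled female. In the libraries labelled male edgeR called 0 higher and 1 lower (0.102 and 0.13% of all genes). At an unadjusted p under 0.05, 1 stood higher and 10 lower (6.58 and 6.5%), and DESeq2 called 1 and 7 (2.1 and 2.04%). The part of CAR and PXR in the values of the P450s was not tested.

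Of 16 genes listed as regulators or partners of Cyp2a5, Nqo1 was higher (0.85, edgeR adjusted p = 0.032) and Gclc lower (-0.87, edgeR adjusted p = 0.00272) in the libraries labelled male. Both are targets of the oxidative stress factor NRF2. Over all genes edgeR called 1.81% higher and 1.96% lower by label. The call of Nqo1 was lost without any 1 of Colo201 2L, Colo201 2R, Colo201 4R, HCT116 1L, HCT116 1R or HCT116 3R (adjusted p of 0.0671 to 0.128). With title numbers summed edgeR called neither Gclc (adjusted p = 0.0783) nor Nqo1 (0.222). Between lines 0 of the 16 passed in edgeR in either label. At an unadjusted p under 0.05, 4 stood higher and 1 lower in the libraries labelled female (7.49 and 6.62% of all genes), and 3 and 2 in those labelled male (6.58 and 6.5%). DESeq2 called 1 higher in the libraries labelled female and 0 in those labelled male. Of 12 pericentral hepatocyte markers 0 passed between lines in edgeR. At an unadjusted p under 0.05, 2 stood higher and 4 lower in the libraries labelled female, where DESeq2 called the same numbers, and 2 and 5 in those labelled male, where DESeq2 called 1 and 4. Over all genes these shares came to 7.49 and 6.62% (DESeq2 2.03 and 2.2%) with the female label, and 6.58 and 6.5% (DESeq2 2.1 and 2.04%) with the male label.

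Genes with the most similar profiles were ranked by the root mean square difference of log2 CPM, centred on each gene's mean, over the 8 libraries and 12731 other genes. Prom1 was closest to Cyp2a4 (0.506) and to Cyp2b9 (0.547), and it ranked 3 for Cyp2b13 (1.41). Prom1 held 20.8 and 21.1 CPM in Colo201 2L and 2R, 8.56 and 6.82 in HCT116 1L and 1R, 6.70 and 3.95 in Colo201 4L and 4R, against 0.228 and 0.150 in HCT116 3L and 3R. For comparison, Cyp2b9 and Cyp2a4 differed by 0.832 from each other, and Cyp2b9 and Cyp2b13, the paralogs, by 1.63. Cyp2a4 and Cyp2a5 differed by 2.12. For each gene some gene outside its pair had a nearer profile than its own paralog. With 12731 genes to choose from against 1 paralog, this says little of the paralogs.

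Gm42375 (ENSMUSG00000108431) was second for Cyp2a4 (0.751) and Cyp2b9 (0.652) and first for Cyp2b13 (1.27). It is an antisense gene at chr7:26304421-26307286 on the - strand whose span shares 118 bases with the start of Cyp2a4. It held 3.12 and 5.48 CPM in Colo201 2L and 2R, 4.27 and 3.06 in HCT116 1L and 1R, 0.610 and 1.22 in Colo201 4L and 4R, against 0.0608 and 0 in HCT116 3L and 3R. The sources used here do not give whether strand entered the counting, and reads of the overlap cannot be assigned between Cyp2a4 and Gm42375. The other near profiles were Pnpla3, a lipid droplet hydrolase, Hamp2, a relative of hepcidin, and Sybu for Cyp2b9, Hao2, Cyp2a22 and Hamp2 for Cyp2b13, and Hamp2, Pnpla3 and Trpm6, a magnesium channel, for Cyp2a4.

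Cyp2a5 had other neighbours in this ranking, Sept6 (0.310), Sall1 (0.411), Acot4 (0.414) and Patz1 (0.426). Each of these 4 was higher in the libraries labelled male (edgeR adjusted p of 0.000656 to 0.0335), and none passed between lines in edgeR. These rankings favour genes with a like amplitude and are descriptions.

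**Figure D5:**
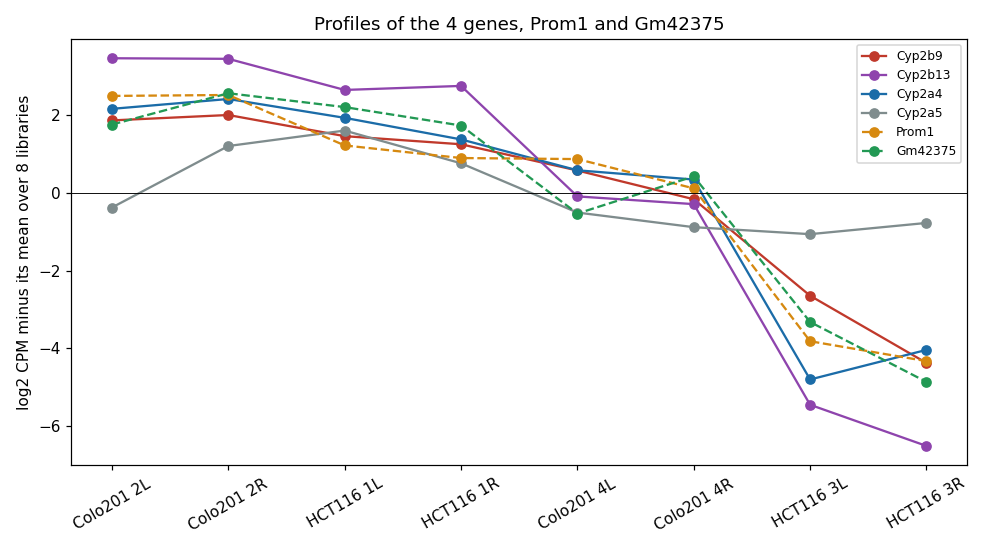
Log2 CPM of the 4 genes, Prom1 and Gm42375 in each library, each minus its own mean over the 8 libraries; lines join the libraries for reading only. Cyp2a5 runs from -1.06 in HCT116 3L to 1.61 in HCT116 1L, a narrower range than that of the other profiles. Those fall steeply at HCT116 3L and 3R, furthest for Cyp2b13.

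Cholangiocyte markers stood highest in Colo201 4. The summed level of 10 cholangiocyte markers was 83.7 and 103 CPM in Colo201 4L and 4R, 51.1 and 66.4 in Colo201 2L and 2R, and 44.7 to 53.2 in the 4 HCT116 libraries. Of the 10 markers 1, Krt23, passed between Colo201 4 and HCT116 3 (5.40, edgeR adjusted p = 0.0389), a call lost without any 1 library of Colo201 4, HCT116 1 or HCT116 3 (adjusted p of 0.058 to 0.157). Krt19 held 25.9 CPM in Colo201 4R and at most 2.17 in the others. The summed level of the Kupffer cell markers was lowest in Colo201 4R, at 213 CPM, against 351 to 419 in the other 3 libraries labelled female. The part of these markers in the values of the 4 genes was not tested. Without Colo201 4R the line differences in libraries labelled female were 5.86 for Cyp2b13, 4.96 for Cyp2a4, 3.85 for Cyp2b9 and 0.41 for Cyp2a5 on the log2 scale.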

How the data were processed

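Liver RNA of 8 libraries was analysed. Per the labels' protocols, TRIzol served to extract RNA and a stranded TruSeq mRNA kit to build libraries. The deposited estimated counts per gene were made by the authors with HISAT2 and StringTie on GRCm38 (mm10), per the submitters' processing notes. The sources used here give no version, annotation or strand setting. Of values from 1 to 16, 43.9 to 45.0% were multiples of 4, against 25% for an even spread. A count therefore need not be a single read. FPKM are the authors' deposited values and served for levels between genes.

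Symbols came from GENCODE vM21, which matched 55141 of 55401 identifiers and may not be the annotation the authors used; the 260 others held at most 0.0343% of the counts. After TMM scaling and filterByExpr, 17669 genes entered the tests in edgeR 4.0.16 (R 4.3.3, glmQLFit and glmQLFTest) with a mean per title number, 4 residual degrees of freedom and Benjamini-Hochberg adjustment over all genes, at 0.05. CPM use the same scaling. SEs derive from the log2 difference and F. The fit was tested on simulated data. Alternatives were RLE scaling, no filter, DESeq2 1.42.0, limma 3.58.1 on log2(FPKM + 1) and log2(FPKM + 0.1), counts divided by 4, an additive fit of line and label, summed title numbers, summed paralogs and each library left out. The 4 genes and the lists were chosen with earlier results of these data known. Named beside them were the cluster's P450s, up to 4 genes of each list with the smallest p by label and between lines in libraries labelled female, 6 fixed regulators, and the 5 nearest profiles of each gene. Not all genes under this rule are printed, and 1 profile is not reported here. Coding sequences and windows came from GENCODE vM21 transcripts and start regions from RefSeq.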

Additional observations from a re-analysis of the deposited data

How the results depend on the processing

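The direction of the 4 genes by label and of Cyp2b9, Cyp2b13 and Cyp2a4 between lines in libraries labelled female held under every alternative run. Where values moved, the cause was not tested unless stated. By label, 666 genes passed in edgeR, with 1489 in DESeq2, 110 with title numbers summed (fewer samples) and 284 to 619 with a library left out. Between lines, 87 passed in libraries labelled female (747 in DESeq2, 19 to 79 with a library left out) and 41 in those labelled male (589 in DESeq2, 26 in limma on log2(FPKM + 1), 2 to 53 with a library left out). For the interaction 5 passed, with 53 in DESeq2, 2 in limma on log2(FPKM + 1) and 0 to 15 with a library left out, and 725 at an unadjusted p under 0.05. With title numbers summed, no member passed by label: Cyp2b9 3.14 (adjusted p = 0.236), Cyp2b13 5.92 (0.232), Cyp2a4 3.95 (0.289) and Cyp2a5 1.75 (0.0944) in edgeR. The additive fit lost Cyp2a4 (3.94, edgeR adjusted p = 0.0539). The residual of the summed and additive fits holds the dependence by which the genes were chosen, so these losses cannot decide on the label difference. By label limma lost Cyp2a5 (1.62, adjusted p = 0.0809 with FPKM + 1 and 0.0745 with FPKM + 0.1). With a library left out Cyp2a5 ranged from 1.23 to 2.03. In libraries labelled female, Cyp2b13 was 3.72 in limma on log2(FPKM + 1) and 3.67 with paralogs summed, and 5.32 to 6.44 with a library left out, where Cyp2b9 was 2.91 to 4.64 and Cyp2a4 4.52 to 5.28. With paralogs summed, Cyp2a4 and Cyp2a5 were both 1.21 by construction, and 0.00 in libraries labelled male, where Cyp2a4 alone was 0.62. The difference of line differences was 3.02 in limma on log2(FPKM + 1) and 3.03 with paralogs summed for Cyp2b13, and 1.22 with paralogs summed for Cyp2a4. With a library left out it was 4.57 to 5.69 for Cyp2b13, 2.33 to 4.07 for Cyp2b9, 3.90 to 4.66 for Cyp2a4 and 0.26 to 1.85 for Cyp2a5, whose line difference in libraries labelled male was -1.62 to -0.03. The 5 genes that passed the interaction include Cyp2b13 and Cyp2a4, which were chosen on this difference, so their passing is no test of them. No paired analysis was possible because a title number belongs to 1 line and the L and R of different numbers are not said to be matched. With 2 libraries a number, small differences were not detectable, and counting error was largest for Cyp2b13 in HCT116 3, at 55 and 23 estimated counts.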
